A study of Mus musculus with 8 samples.

Results

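The 8 genes described here carry the urea cycle and the steps that feed ammonia into it in mouse liver: Nags, Cps1, Otc, Ass1, Asl, Arg1, Gls2 and Glud1. They were found by symbol in a table of 15864 genes, where each symbol marks 1 row, and all 8 passed the filter on low counts that left 14664 genes for testing. Liver RNA was sequenced from 3 control samples labelled as wild type and from 5 knockout samples labelled Alb-cre Mfrn1-/- Mfrn2 -/-. The knockout carries Cre recombinase under the albumin promoter, which acts in hepatocytes, and is labelled as lacking mitoferrin 1 (Slc25a37) and mitoferrin 2 (Slc25a28), the carriers that bring iron into mitochondria. All mice were of similar age and ate standard chow, and the labels used here give no age, sex or treatment. Only the knockouts are labelled with Alb-cre, so the presence of Cre and the loss of the carriers cannot be told apart.

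Hepatocytes around the portal vein turn toxic ammonia into urea. Inside mitochondria, Nags makes N-acetylglutamate, the activator that Cps1 needs to join ammonia and bicarbonate into carbamoyl phosphate, and Otc passes that group to ornithine to form citrulline. In the cytosol Ass1 and Asl build and split argininosuccinate, and Arg1 splits arginine into urea and ornithine, which returns to the mitochondrion. Gls2, the liver glutaminase, and Glud1, glutamate dehydrogenase, release ammonia from glutamine and glutamate in mitochondria. Hepatocytes around the central vein take up what escapes and store it as glutamine through Glul.

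Control libraries held 35484499 to 43072524 counts and knockout libraries 24600340 to 31887401, so each control was deeper than each knockout. The lowest count of any member in any library was 1603, for Nags in knockout replicate 3, where counting error is 2.5%. Slc25a28 stood at 16.6 to 18.1 counts-per-million (CPM) in the controls and 0.592 to 0.888 CPM in the knockouts, a fall that passed the test (edgeR adjusted p = 1.92e-07). Slc25a37 stood at 12.9 to 23.0 and 5.76 to 10.6 CPM (edgeR adjusted p = 0.104), so its transcript was still counted in each library labelled as lacking it. The source of those reads, from outside the deleted part or otherwise, was not tested. Together 6 hepatocyte markers summed to 84665 to 86965 CPM in the controls and 84072 to 94149 CPM in the knockouts. Most of that sum was Alb, at 69508 to 72782 CPM in the controls and 68741 to 81484 CPM in the knockouts. Only 2 of the 6 had a positive fold change. No tested marker of hepatocytes, Kupffer cells, sinusoidal endothelium, stellate cells, bile duct, blood or lymphocytes passed the test across all genes. As 0.109% of all genes passed it, a count of 0 among few markers does not show equal cell composition. Of 6 stellate markers, 5 had a negative fold change. Their sum was 605 to 635 CPM in the controls and 533 to 602 CPM in the knockouts. Of 6 sinusoidal endothelium markers, only 1 had a positive fold change, with sums of 314 to 401 CPM and 302 to 395 CPM. The part of either in the results was not tested. In knockout replicates 1 and 2 the clock output gene Dbp stood at 69.3 and 54.5 CPM, against 1.23 to 2.93 CPM in the other 6 libraries. The labels do not say that the samples came from separate animals, so the p-values cover no more than the spread among these libraries.

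The liver held the members at very unequal levels. Levels between genes are compared here in FPKM, the authors' values corrected for gene length and library depth. Cps1 averaged 1188 ± 279 FPKM in the controls (SD, n = 3), which ranked 51 among all genes of the table. Arg1 followed at 975 ± 177 FPKM, ranked 63, and its control range of 778 to 1121 FPKM overlapped the 899 to 1456 FPKM of Cps1. Within each library, however, Cps1 lay above Arg1 in all 3 controls and all 5 knockouts. Next came Ass1 at 385 ± 91.9 FPKM and Glud1 at 325 ± 18.1 FPKM, whose control ranges overlapped. Ass1 lay above Glud1 in 2 of 3 controls and in 0 of 5 knockouts, where they averaged 239 ± 78.2 and 331 ± 18.6 FPKM (SD, n = 5). Otc at 146 ± 6.49 FPKM, Gls2 at 117 ± 43.5 FPKM and Asl at 106 ± 20.1 FPKM formed a lower tier in the controls, in which Otc exceeded Asl in each of the 8 libraries and Gls2 overlapped both. Nags, whose product acts as an activator, was the least abundant at 27.0 ± 5.29 FPKM, ranked 1589. Together the 8 genes took 0.949% to 1.36% of the counts of a control library and 0.699% to 1.1% of a knockout library.

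Promoters of the 4 members found in the RefSeq table (GRCm38.p6) are shown to give the sequence at the starts of Otc and Ass1, whose values the results turn on, and of Nags and Glud1 beside them. Each runs from 250 bases before to 50 bases after the RefSeq start of the gene, 5′ to 3′ on the plus strand, at chr2:31470020-31470319 for Ass1, chr11:102145263-102145562 for Nags, chrX:10252055-10252354 for Otc and chr14:34310477-34310776 for Glud1. Capitals mark matches on either strand to a GC box (GGGCGG) or an E-box (CACGTG).
Ass1: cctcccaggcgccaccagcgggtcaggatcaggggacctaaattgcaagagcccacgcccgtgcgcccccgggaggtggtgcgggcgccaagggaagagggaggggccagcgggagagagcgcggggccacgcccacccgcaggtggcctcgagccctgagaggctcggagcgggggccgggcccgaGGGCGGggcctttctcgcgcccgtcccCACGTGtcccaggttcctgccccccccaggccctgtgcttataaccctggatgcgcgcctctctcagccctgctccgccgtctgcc
Nags: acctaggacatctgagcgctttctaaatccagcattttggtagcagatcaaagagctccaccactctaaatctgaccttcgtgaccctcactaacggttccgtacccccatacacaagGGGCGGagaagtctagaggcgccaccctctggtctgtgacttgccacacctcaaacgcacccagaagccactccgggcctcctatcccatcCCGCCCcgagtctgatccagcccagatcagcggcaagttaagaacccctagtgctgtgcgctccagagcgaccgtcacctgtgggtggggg
Otc: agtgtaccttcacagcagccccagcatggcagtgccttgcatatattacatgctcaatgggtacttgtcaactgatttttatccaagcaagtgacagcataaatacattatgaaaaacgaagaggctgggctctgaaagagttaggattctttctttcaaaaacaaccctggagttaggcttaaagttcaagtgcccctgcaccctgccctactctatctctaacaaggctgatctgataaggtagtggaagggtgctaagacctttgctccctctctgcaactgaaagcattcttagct
Glud1: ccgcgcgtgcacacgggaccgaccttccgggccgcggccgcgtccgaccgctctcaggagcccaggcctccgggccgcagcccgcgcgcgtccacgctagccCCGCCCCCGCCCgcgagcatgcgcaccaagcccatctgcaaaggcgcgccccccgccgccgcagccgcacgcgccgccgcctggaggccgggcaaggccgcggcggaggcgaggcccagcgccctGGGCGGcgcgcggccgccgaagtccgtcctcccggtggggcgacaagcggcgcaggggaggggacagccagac

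Base composition set these promoters apart from each other. The Glud1 window is 81.0% G or C with 51 CpG pairs, above 99.3% of all 32851 promoters of that table in GC share, and Ass1 is at 74.0% with 27 CpG pairs. Nags is at 57.7%, and Otc, at 44.3% with 1 CpG pair, lies below the median of 52.7%. The GC box was found in Ass1, Nags and Glud1, as in 35.7% of all promoters, and the E-box in Ass1 alone, at position -36 from the start, as in 7.15% of all. No match was found in these 4 windows to TATAAA (13.6% of all promoters), CCAAT (37.4%), the C/EBP motif TTGCNNAA (10.8%), TGACGTCA (1.79%) or the HNF4 motif CAAAGTCCA (0.475%). Both strands were searched for these strings as written, so sites that differ from them were not sought and their absence is not shown. No printed match overlaps one of another motif. Promoters of Cps1, Asl, Arg1 and Gls2 are not shown.

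None of the 8 members passed the test for a difference between knockout and control. The test was edgeR's quasi-likelihood test, fitted and adjusted by the Benjamini-Hochberg method over all 14664 genes, with a threshold of 0.05, and 0.109% of all genes passed it, 0.0614% lower and 0.0477% higher in the knockouts. By DESeq2, 0 of 8 members passed as well, where 1.62% of all genes did, and 0 of 8 did in the authors' deposited table, where the share of all genes was 1.48%. That deposited table gives Otc, Ass1 and Arg1 log2 fold changes of -0.27, -0.47 and -0.32 (adjusted p = 0.207, 0.239 and 0.335). Of the members, 7 had a negative log2 fold change, as did 50.8% of all genes, and the median of the 8 was -0.23 against -0.0037 for all genes tested. At an unadjusted p under 0.05 stood 3 of the 8, Otc, Ass1 and Arg1, all lower in the knockouts, where 4.68% of all genes were lower and 10.4% passed in either direction. That count changed with the libraries used. It was 0 without control replicate 1 and 1 without control replicate 2, where 6.54% and 8.10% of all genes passed in either direction. Without control replicate 1 the fold changes of Otc, Ass1 and Arg1 were still -0.28, -0.57 and -0.36. The count was 0 without knockout replicates 1 and 2 (7.11% of all genes). Among the samples whose title numbers begin with 82 (3 controls, 2 knockouts) it was also 0 (8.93%), and the median of the 8 was -0.096. Title numbers of knockout replicates 1 to 3 begin with 85 and those of no control do. For these knockouts the number series and the genotype cannot be told apart. The count was 2 without knockout replicate 1, 2 or 3, and 3 without control replicate 3, knockout replicate 4 or knockout replicate 5. In these whole-tissue samples a change in the number of hepatocytes and a change in RNA per hepatocyte cannot be told apart, and neither was tested.

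**Figure D1:**
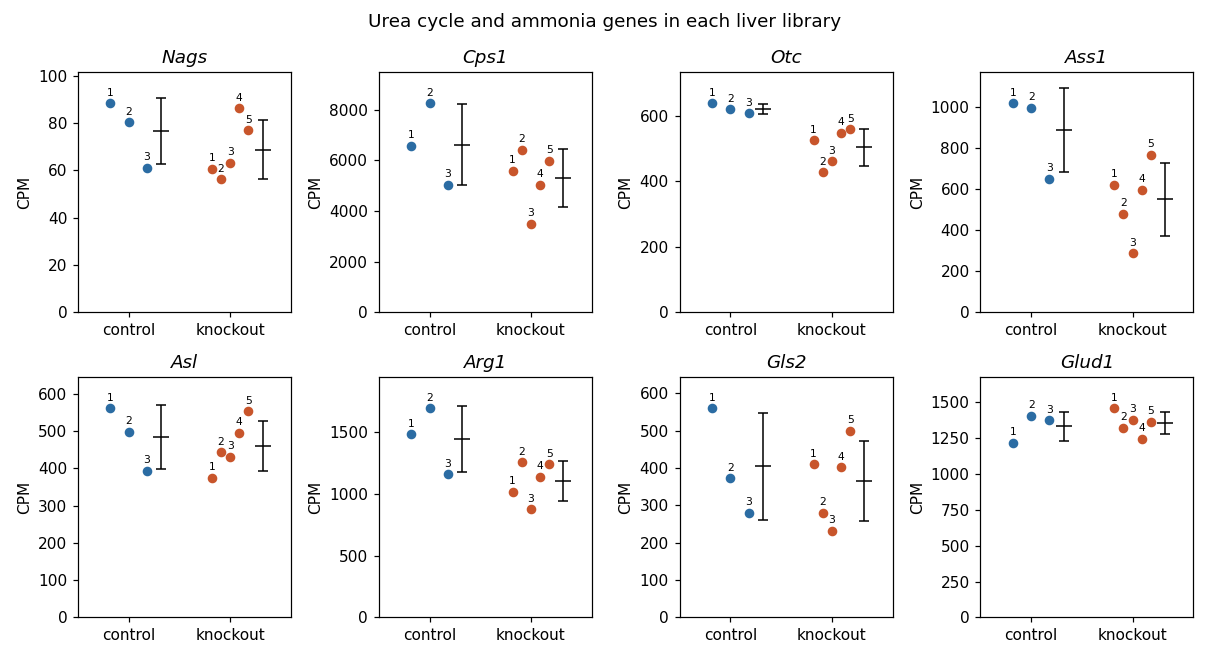
CPM (vertical axes, from 0) of the 8 members in the control (blue) and knockout (orange) liver samples. Points are libraries with their replicate number, and bars are the mean ± SD of each group (n = 3 and 5). The groups are separate for Otc alone.

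The mitochondrial entry steps came first in the order of the pathway. Nags (ENSMUSG00000048217, plus strand of chromosome 11, 102145513 to 102149477 in mm10) stood at 88.4, 80.3 and 61.0 CPM in the controls against 60.5, 56.2, 63.3, 86.2 and 76.8 CPM in the knockouts, each in the order of the replicate numbers. Control replicate 3 lay among the 3 lowest knockouts, and knockout replicate 4 lay above 2 of the controls. The knockout mean was 89.6% of control, and the log2 fold change was -0.16 ± 0.164 (SE, with an edgeR adjusted p of 0.770), with a 95% interval from -0.52 to 0.21. It was -0.033 without control replicate 1, and among the samples numbered 82 its direction turned, to 0.093.

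Cps1 (ENSMUSG00000025991, plus strand of chromosome 1, 67123026 to 67231259) stood at 6564, 8253 and 5029 CPM in the controls against 5587, 6420.0, 3488, 5023 and 5982 CPM in the knockouts. The 5 knockouts lay below the control median, but only 2 of them lay below the lowest control, so the groups overlapped. Means were 6615 ± 1612 and 5300.1 ± 1136 CPM (SD, n = 3 and 5), which put the knockouts at 80.1% of control. The log2 fold change was -0.32 ± 0.214 (SE, with an edgeR adjusted p of 0.634), with a 95% interval from -0.80 to 0.16. Cps1 leaned on single libraries: the fold change was -0.13 without control replicate 2 and -0.19 without knockout replicate 3, and it did not pass either time.

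Otc was the single member whose groups did not overlap. Otc (ENSMUSG00000031173, plus strand of chromosome X, 10252305 to 10321024) stood at 638, 619 and 607 CPM in the controls against 524, 427, 460.4, 548 and 558 CPM in the knockouts. Each of the 5 knockouts lay below each of the 3 controls, as they did for 3.74% of all genes tested. The controls differed among themselves by 2.52% (coefficient of variation), the smallest of the 8 members in that group, and the knockouts by 11.3%. Means of 621 ± 15.6 and 504 ± 57.0 CPM (SD, n = 3 and 5) gave a log2 fold change of -0.30 ± 0.109 (SE, with an edgeR adjusted p of 0.394) with a 95% interval from -0.55 to -0.06, so the knockouts averaged 81.0% of control. The interval is not adjusted for the number of genes. Without knockout replicates 1 and 2, whose clock genes stood apart, the fold change was -0.24, and among the samples numbered 82 it was -0.17 (edgeR adjusted p = 0.730 and 0.654).

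Of the cytosolic steps, Ass1 had the most negative fold change, and its highest library was 3.55-fold above its lowest, the widest span of the 8 members. Ass1 (ENSMUSG00000076441, plus strand of chromosome 2, 31470207 to 31520672) stood at 1018, 995 and 649.7 CPM in the controls against 619.7, 479.8, 287, 594 and 765 CPM in the knockouts. In 4 knockouts Ass1 lay below all controls, while knockout replicate 5 lay above control replicate 3. Means were 887 ± 206 and 549 ± 178 CPM (SD, n = 3 and 5), with the knockouts at 61.9% of control and a log2 fold change of -0.69 ± 0.275 (SE, with an edgeR adjusted p of 0.436), 95% interval from -1.31 to -0.08. Among the samples numbered 82 the fold change was -0.38, and without knockout replicate 3 it was -0.52 (edgeR adjusted p = 0.657 and 0.297). A processed pseudogene, Gm5424, matches the Ass1 transcript at 99.5% over 1240 bases, so reads of the pair cannot be assigned with certainty. Its counts were 6.37% to 7.74% of those of Ass1 in each of the 8 libraries, and the fold change of the summed pair was -0.70 (edgeR adjusted p = 0.437).

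Asl (ENSMUSG00000025533, minus strand of chromosome 5, 130011258 to 130025132) stood at 560.4, 498 and 392 CPM in the controls against 375, 443, 430.2, 496 and 553 CPM in the knockouts. The groups covered nearly the same range, and control replicate 3 lay below 4 knockouts. Means were 483 ± 84.9 and 459 ± 67.5 CPM (SD, n = 3 and 5), with a log2 fold change of -0.074 ± 0.151 (SE, with an edgeR adjusted p of 0.902) and a 95% interval from -0.41 to 0.26. The direction turned to 0.12 among the samples numbered 82 and to 0.056 without control replicate 1.

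Arg1, which releases urea (ENSMUSG00000019987, minus strand of chromosome 10, 24915208 to 24927470), stood at 1478, 1688 and 1157 CPM in the controls against 1015, 1252, 874, 1135 and 1236 CPM in the knockouts. In 3 knockouts Arg1 lay below all controls, and knockout replicates 2 and 5 lay above control replicate 3. Means of 1441 ± 268 and 1102 ± 159 CPM (SD, n = 3 and 5) put the knockouts at 76.5% of control. The log2 fold change was -0.39 ± 0.156 (SE, with an edgeR adjusted p of 0.446), with a 95% interval from -0.74 to -0.04. Arg2, the mitochondrial arginase of other tissues, was far lower, at 0.255 to 0.340 CPM in the controls and 0.197 to 0.725 CPM in the knockouts.

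The ammonia-releasing enzymes did not share a pattern. Gls2 (ENSMUSG00000044005, plus strand of chromosome 10, 128194457 to 128210004) stood at 559.7, 373 and 280.4 CPM in the controls against 409.8, 279.7, 233, 402 and 499 CPM in the knockouts. Means were 404 ± 142 and 365 ± 107 CPM (SD, n = 3 and 5), and the coefficient of variation was 35.2% among the controls and 29.5% among the knockouts. Against that spread the log2 fold change of -0.15 ± 0.275 (SE, with an edgeR adjusted p of 0.891) had a 95% interval from -0.76 to 0.47, and it was 0.17 without control replicate 1 and 0.16 among the samples numbered 82. Glud1 (ENSMUSG00000021794, plus strand of chromosome 14, 34310727 to 34345144) stood at 1216, 1406 and 1373 CPM in the controls against 1455, 1318, 1378, 1245 and 1363 CPM in the knockouts. The 5 knockouts lay between or just above the controls, and the highest of the 8 libraries was 1.2-fold above the lowest. Means were 1331 ± 102 and 1352 ± 77.3 CPM (SD, n = 3 and 5), and the log2 fold change was 0.022 ± 0.0976 (SE, with an edgeR adjusted p of 0.958), with a 95% interval from -0.20 to 0.24, the narrowest of the 8.

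**Figure D2:**
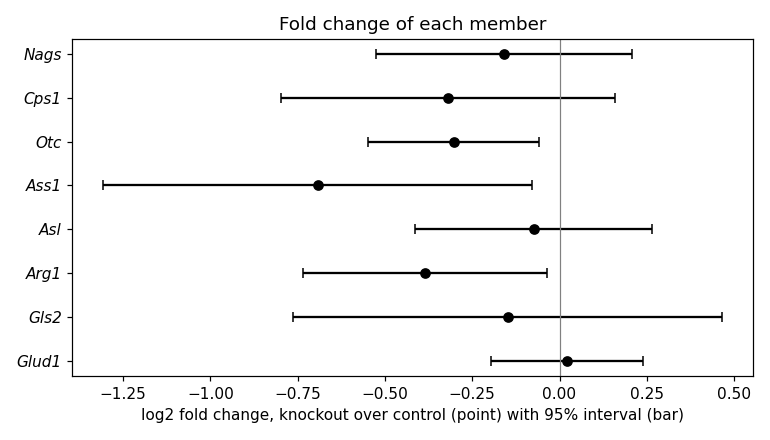
Log2 fold change of knockout over control for each member (points, horizontal axis) with its 95% interval from edgeR (bars), in the order of the pathway. The intervals of Otc, Ass1 and Arg1 lie below 0 before adjustment for the number of genes tested, and the other 5 include 0.

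Several members were high or low in the same libraries within a genotype. Of the 3 controls, control replicate 3 was lowest for 7 of 8 members, the exception being Glud1. Among the 5 knockouts, replicate 3 was lowest for 4 members (Cps1, Ass1, Arg1 and Gls2), and replicate 5 was lowest for 0. On average over the members, log2 CPM relative to each gene's mean was 0.31, 0.28 and -0.10 in control replicates 1 to 3 and -0.073, -0.16, -0.43, 0.010 and 0.16 in knockout replicates 1 to 5. Knockout replicate 5 therefore lay above control replicate 3, and replicate 1 and replicate 4 did as well. With control replicate 3 and knockout replicate 3 both left out, a choice made after these values were seen, 0 of 8 members passed, and Ass1 and Arg1 had fold changes of -0.70 and -0.44 (edgeR adjusted p = 0.122 and 0.161).

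**Figure D3:**
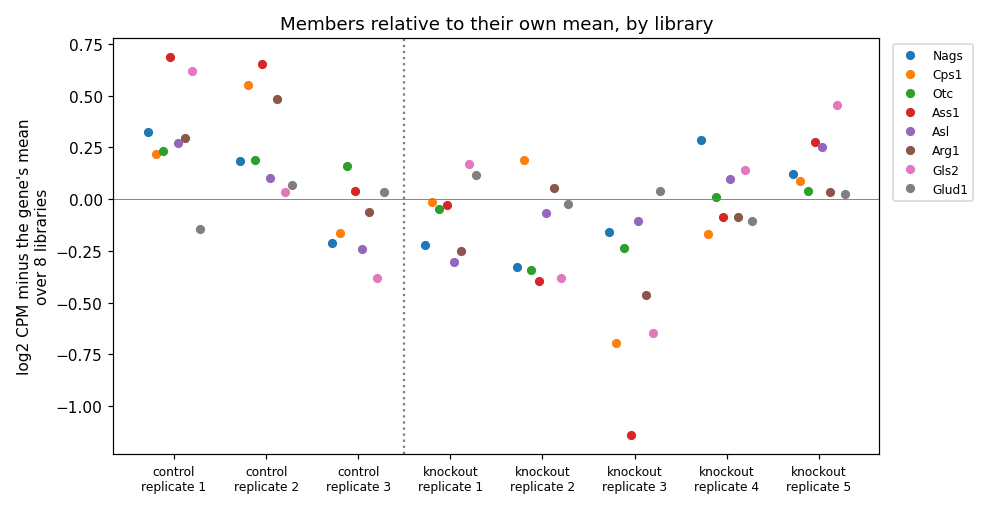
Log2 CPM of each member minus its own mean over the 8 libraries (vertical axis), by library, with a colour per gene. Most members of knockout replicate 3 lie low, with Ass1 lowest, and Glud1 stays near 0 in each library.

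The ratio of one member to another was steadier for some pairs than for others. Over the 8 libraries the log2 ratio of Asl to Nags varied with an SD of 0.14 and that of Cps1 to Arg1 with an SD of 0.15, the smallest of the 28 pairs, although Cps1 itself varied with an SD of 0.36. At the other end, the log2 ratio of Ass1 to Glud1 had an SD of 0.61 and covered a 4.02-fold range. These pairs come from the same libraries and carry no test.

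Outside the 8 genes, those with the profile most like the members' mean over the 8 libraries were Glb1, a lysosomal galactosidase (Pearson's r = 0.97), Qdpr (0.97), Il11ra1 (0.96), Gm5424 (0.95) and Nrn1 (0.95), among 8519 genes compared. Qdpr encodes the reductase that restores the cofactor of phenylalanine breakdown, and Gm5424 is the Ass1 copy described with that gene. Qdpr stood at 500.4, 475 and 348 CPM in the controls against 342, 288, 251, 333 and 386 CPM in the knockouts. Its log2 fold change was -0.46 ± 0.161 (SE, with an edgeR adjusted p of 0.371). The 5 genes were picked for this likeness, so the r values are a description.

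Genes that serve the cycle from outside gave no calls by edgeR either, nor did the liver zone lists below. As 0.109% of all genes passed, a count of 0 in lists this short says little about them. Of 11 partners, which include mitochondrial carriers, carbonic anhydrases that supply bicarbonate and sirtuins that act on Cps1, Otc or Glud1, 0 passed, 7 had a negative fold change, and the median log2 fold change was -0.13, or -0.063 without control replicate 3 and -0.071 without control replicate 1. Slc25a15, which returns ornithine to the mitochondrion, stood at 522, 500.2 and 384 CPM in the controls against 363 to 438 CPM in the knockouts (log2 fold change -0.22 ± 0.120 SE, with an edgeR adjusted p of 0.552). Sirt4, an inhibitor of glutamate dehydrogenase, was at 7.58 to 9.25 CPM and 5.02 to 8.10 CPM (edgeR adjusted p = 0.534). Slc25a13, the aspartate carrier citrin, and Car5a, the mitochondrial carbonic anhydrase, had log2 fold changes of -0.056 ± 0.118 and -0.13 ± 0.140 (SE).

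The list of glutamine and ammonia transport had 13 of 18 members tested, with 0 passed, 8 positive and 5 negative, and a median of 0.086. The median turned slightly negative without knockout replicate 1, at -0.010, and among the samples numbered 82, at -0.018. With any other single library left out it stayed positive, and it was 0.24 without control replicate 2. Glul, the pericentral glutamine synthetase, stood at 1174, 1375 and 1213 CPM in the controls against 1332, 1621, 1632, 1341 and 1133 CPM in the knockouts. The groups overlapped, with a log2 fold change of 0.17 ± 0.138 (SE, with an edgeR adjusted p of 0.701). Slc38a2, a transporter of small neutral amino acids, had groups that did not overlap, at 68.3 to 95.7 CPM and 97.2 to 130.1 CPM (log2 fold change 0.37 ± 0.142 SE, with an edgeR adjusted p of 0.420). Groups with all knockouts above all controls were found for 3.20% of all genes. Aqp8, a water channel that also passes ammonia, had a log2 fold change of -0.42 ± 0.185, and Slc1a2, the pericentral glutamate transporter, of 0.57 ± 0.262 (SE, with an edgeR adjusted p of 0.478 and 0.492).

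Glul also served as a yardstick within each library, where scaling between libraries plays no part. These are ratios of CPM without correction for gene length, so they compare libraries, not genes. Glul itself was not fixed, with a log2 fold change of 0.17 and its highest value in knockout replicate 3 (1632 CPM). A difference in a ratio to Glul therefore holds the differences of both genes. Cps1 stood at 5.59, 6.0 and 4.15 times Glul in the controls and at 4.19, 3.96, 2.14, 3.75 and 5.28 times in the knockouts. Only knockout replicates 1 and 5 lay above the lowest control. The difference of the mean log2 ratios was -0.48 (p = 0.161 by an exact two-sided permutation test over 56 splits, 0.482 adjusted over 3 ratios), where the smallest p this design allows is 0.0179. It was -0.28 without knockout replicate 3 and -0.22 among the samples numbered 82. Gls2 to Glul ran from 0.231 to 0.477 in the controls and from 0.143 to 0.441 in the knockouts, and Cps1 to Otc from 8.29 to 13.3 and from 7.58 to 15.0. Their log2 differences were -0.30 and -0.011 (exact permutation p = 0.571 and 1), so these differences were within the spread of the libraries.

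**Figure D4:**
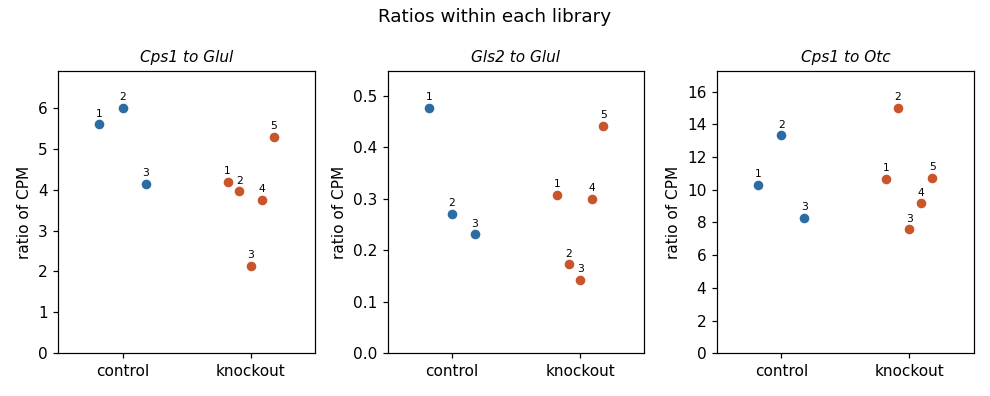
CPM ratios within each library (vertical axes, from 0) for Cps1 to Glul, Gls2 to Glul and Cps1 to Otc, in control (blue) and knockout (orange) liver samples with replicate numbers. Knockout replicate 3 is lowest in all 3 panels, and the groups overlap in each.

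Of arginine, ornithine and proline metabolism, 0 of 18 tested members passed by edgeR. Of these, 11 were negative, and the median was -0.18, or -0.080 without control replicate 1. Prodh2, an enzyme of hydroxyproline breakdown, stood at 293, 270.3 and 265 CPM in the controls against 217, 195, 206, 196 and 225 CPM in the knockouts. No knockout reached the lowest control, as was so for 3.74% of all genes tested. The log2 fold change was -0.41 ± 0.0877 (SE, with an edgeR adjusted p of 0.151). Agmat, which splits agmatine into putrescine and urea, stood at 155 to 201 CPM and 133 to 146 CPM (log2 fold change -0.41 ± 0.0983 SE, with an edgeR adjusted p of 0.187). Oat, which turns ornithine into a precursor of glutamate and proline, stood at 1709, 789 and 760.3 CPM in the controls against 523 to 980.4 CPM in the knockouts (log2 fold change -0.55 ± 0.292 SE, with an edgeR adjusted p of 0.542), and control replicate 1 alone was far above the rest. By DESeq2, which 1.62% of all genes passed, 3 of this list did: Prodh2 and Agmat fell and Slc7a7, a transporter of basic amino acids, rose (DESeq2 adjusted p = 0.00175, 0.0224 and 0.0452).

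Enzymes of transamination and amino acid deamination were similar, with 0 of 18 tested passed by edgeR, 12 negative and a median of -0.19, which was -0.096 without control replicate 1 and -0.064 among the samples numbered 82. Aadat, an aminotransferase of the lysine and kynurenine pathways, stood at 83.8, 75.4 and 88.0 CPM in the controls against 62.3, 56.9, 68.1, 60.6 and 55.2 CPM in the knockouts. For Aadat all knockouts lay below all controls, as was so for 3.74% of all genes tested (log2 fold change -0.44 ± 0.0923 SE, with an edgeR adjusted p of 0.139). Ccbl2, a kynurenine aminotransferase, stood at 220.2, 143 and 148 CPM and at 281, 220.0, 281, 300.5 and 284 CPM (log2 fold change 0.68 ± 0.164 SE, with an edgeR adjusted p of 0.187). By DESeq2, 3 members passed, against 1.62% of all genes: Aadat and Agxt2 fell and Ccbl2 rose (DESeq2 adjusted p = 0.00957, 0.0372 and 0.00564).

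By edgeR and DESeq2, 0.109% and 1.62% of all genes passed. No transcription factor or receptor of a list known to act on urea cycle genes passed by either. Of 16 tested, 11 were positive and 5 negative, and the median was 0.058, between 0.028 and 0.13 with single libraries left out. The 2 with the smallest p were Foxo1, with a log2 fold change of 0.37 ± 0.165, and Cebpb, with 0.22 ± 0.113 (SE, with an edgeR adjusted p of 0.488 and 0.535).

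Genes of the liver zones were compared because the cycle is periportal. Among 12 periportal genes, of which Cps1 is a member, 0 passed, 9 were positive and 3 negative, with a median of 0.16. Pck1, which opens glucose synthesis, had a log2 fold change of 0.52 ± 0.242, and Hsd17b6 of 0.51 ± 0.202 (SE, with an edgeR adjusted p of 0.492 and 0.433). Among 13 pericentral genes 0 passed, 9 were negative and 4 positive, with a median of -0.23, or -0.065 without control replicate 1. Tbx3, a transcription factor of pericentral hepatocytes, stood at 19.4, 16.5 and 19.1 CPM in the controls against 32.7, 38.5, 26.7, 29.6 and 41.5 CPM in the knockouts (log2 fold change 0.88 ± 0.147 SE, with an edgeR adjusted p of 0.0742), and it rose by DESeq2 (DESeq2 adjusted p = 2.36e-05). Lect2, a secreted protein, had a log2 fold change of -0.36 ± 0.0975 (SE, with an edgeR adjusted p of 0.249).

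**Figure D5:**
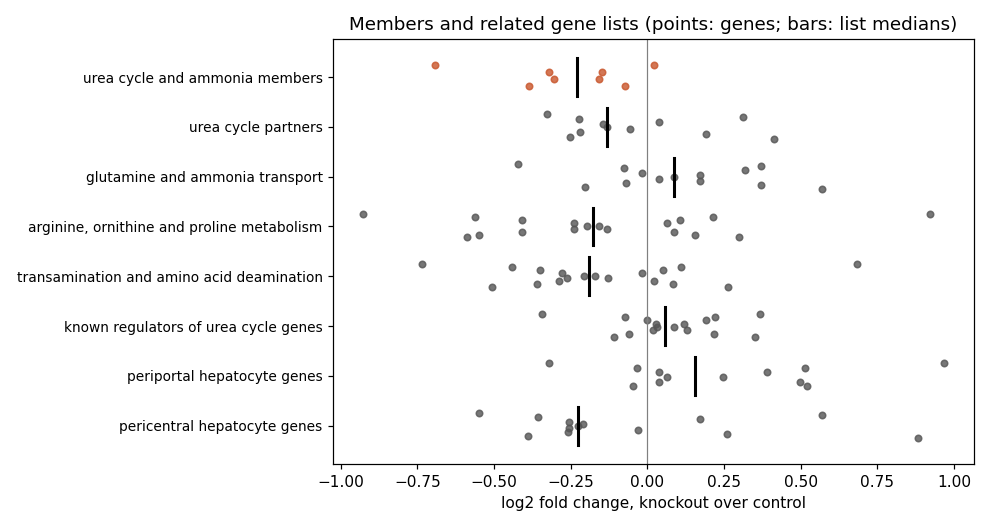
Log2 fold change of knockout over control (horizontal axis) for each tested gene (points) of the 8 members (orange) and the 7 related lists (grey), with list medians as black bars. The members' median lies at -0.23 and the medians of the related lists between -0.23 and 0.16.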

How the data were processed

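Liver RNA of 3 control and 5 knockout samples was sequenced from stranded, ribosome-depleted total RNA libraries, per the labels' protocols. Reads were processed with Novoalign 2.8, mm10 and DESeq2, per the submitters' processing notes, while the sources used here do not name the counting program or its strand setting. The authors deposited raw counts per gene, regularised log2 values (not used here), FPKM values, gene lengths, and their own log2 fold change with a score that stands for the adjusted p, per the file headers. That deposited score follows the negative log10 of an adjusted p times 10, since its median ratio to that quantity from a DESeq2 fit was 0.992. Table starts are 0-based: 11363 of 15626 identifiers found in GENCODE M21 start 1 base early, and positions here count from 1.

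Genes with low counts were removed by filterByExpr in edgeR 4.0.16 (min.count 10, min.total.count 15) in R 4.3.3, and libraries were scaled by TMM. Genes were tested in a design holding genotype alone, at a threshold of 0.05 on adjusted p. A standard error is the fold change over the root of F, and log2 CPM were computed with prior count 2. DESeq2 1.42.0 and limma-voom (limma 3.58.1) were alternatives, with other scaling, no filter, thinning, removal of a trend with gene length and left-out libraries. Copies and overlaps were sought with blastn 2.17.0 (at least 90% identity over 200 bases) and GENCODE M21. Nags overlaps antisense Gm11586 and Gls2 overlaps Spryd4 on the other strand, so without a stated strand setting their reads may mix. Glud1 matches Glud-ps at 97.6% over 656 bases, which is not analysed here. Procedures were tested on simulated counts. Figures used matplotlib 3.10.9.

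The members, lists and tests were chosen with earlier results of these data known. Named genes were the 8 members, the deleted genes, 8 direct partners (1 of them is not reported here), the 2 genes with the smallest p in each list and the 5 most like profiles (average log2 CPM of at least 3). Agxt2, Slc7a7, Dbp and the marker genes fall outside that rule and were named after their values were seen.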

Additional observations from a re-analysis of the deposited data

Results flagged for a closer look

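Of the related lists, 3 genes had 1 knockout library far from the other 4, measured as the gap to the nearest library over the whole range of log2 CPM, among 39 groups of 5 values looked at. About 1 in 20 such groups is flagged by chance. Slc1a2 stood at 103 CPM in knockout replicate 3 against 193 to 222 CPM in the others (gap over range 0.819). Ccbl2 stood at 220.0 CPM in knockout replicate 2 against 281 to 300.5 CPM (0.781). Lect2 stood at 190.0 CPM in knockout replicate 2 against 152 to 154 CPM (0.926).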

How the results depend on the processing

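No member passed under any of the 18 alternatives run on all genes, and the smallest adjusted p of a member was 0.122, for Ass1. That value came without replicate 3 of both groups, libraries left out after their values for the members were seen. Apart from that choice the smallest was 0.155, for Ass1 with the replicate number as a block. Cps1, Otc, Ass1 and Arg1 kept a negative fold change in each of the 18 alternatives. Their ranges were -0.47 to -0.13, -0.41 to -0.17, -0.98 to -0.38 and -0.51 to -0.26. The direction turned in others, and with single libraries left out Asl ranged from -0.19 to 0.056, Gls2 from -0.34 to 0.17, Nags from -0.29 to -0.033 and Glud1 from -0.030 to 0.062. Without knockout replicates 1 and 2 Asl was at 0.037, and among the samples numbered 82 Asl, Nags, Gls2 and Glud1 were at 0.12, 0.093, 0.16 and -0.027. The count of genes called was 16, with 257 by DESeq2, 8 to 30 with single libraries left out and 49 without replicate 3 of both groups; the cause was not tested. The log2 ratio of Gls2 to Glul was 0.23 among the samples numbered 82 and ranged from -0.52 to 0.0049 with libraries left out, and that of Cps1 to Otc from -0.18 to 0.17.

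The labels do not state that replicate numbers pair the samples. Deviations from the group means correlated at 0.0806, 0.0198 and -0.0604 for numbers 1 to 3, and not every sample correlated best with its own number. With 3 controls, these values cannot exclude a pairing. With the replicate number as a block over the 3 shared numbers, 12 genes and 0 members were called, and the log2 ratio of Cps1 to Otc was 0.031. Counting error was small for the members, so the spread between libraries limits what 3 and 5 samples can show.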
